A study of Rattus norvegicus with 12 samples.

Results

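The cell cycle and DNA replication genes are a set of 44 genes fixed by name, of which 29 act in mitosis and 15 in S phase. They were chosen by looking up each name among the gene names of an Agilent whole-genome rat array, and 42 of the 44 were listed there, 27 mitosis genes and all 15 S-phase genes, out of 20199 genes tested. Mki67 and Ect2 were not listed under those gene names, so no value is given for either. The arrays measured total RNA of the lumbar mammary gland of female Wistar rats, 1 array per rat and 3 rats in each of 4 groups. LP rats were born to dams fed 8.8% protein throughout pregnancy, and NP rats to dams fed 17.0% protein. Both groups grew up in litters reduced to 6 females and were suckled until day 21 by dams on standard chow. They were then weaned to standard chow, so that by design they differed in the diet of the dam before birth. Glands were taken at day 21, the day of weaning, and at day 28, which the study set as the beginning and the end of ductal growth at puberty. The labels name the arrays 4a, 5a and 6a (NP day 21), 4a, 6a and 7c (LP day 21), 4f, 5f and 6f (NP day 28) and 4f, 6f and 7f (LP day 28). They do not say whether the rats of a group came from separate litters, so p values measure the spread between these rats.

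A dividing cell copies its DNA in S phase and separates the copies in mitosis. The S-phase genes encode the helicase and clamp that work at the replication fork, the factors that license origins, and the enzymes that make deoxynucleotides. They are switched on by E2F factors as a cell leaves G1. The mitosis genes encode Cdk1 with its cyclins, the spindle, the kinetochore and the machinery of chromosome separation and cytokinesis. They peak later in the cycle, through complexes that bind a CHR element (TTTGAA), often near CCAAT boxes. In the gland at puberty, division is concentrated in the terminal end buds, the growing tips of the ducts.

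The promoter windows of 6 members are printed below as examples, Cdk1, Ccnb2 and Prc1 of the mitosis genes and Mcm2, Mcm6 and Mcm3 of the S-phase genes. They are not all typical of their list. Cdk1 and Ccnb2 are among the few mitosis genes with E2F letters, and Mcm2 is the only S-phase gene with CHR letters. RefSeq windows on GRCr8, from 250 bases before to 50 after the annotated start, were given for 36 of the 44 genes. The letters searched on both strands were TTTGAA for the CHR element, CCAAT for the CCAAT box, and TTCCCGC or TTGGCGC or TTCGCGC or TTGCCGC for E2F. Matches on opposite strands can overlap, as in the E2F matches of Mcm2 and Mcm6, and each window was scored only as holding a motif or not. Of 25 mitosis genes with a window, 17 (68%) held the CHR letters, against 19.4% of all 27457 genes with a window. CCAAT was present in 18 of the 25 (72%), against 39.6% of all genes, and both CHR and CCAAT in 14 (56%), against 8.5%. E2F letters were present in 5 mitosis genes (20%), against 10.6% of all genes. Of 11 S-phase genes with a window, 9 (81.8%) held E2F letters, 7 (63.6%) CCAAT and 1 (9.09%) the CHR letters, namely Mcm2. Tk1 and Pcna held no E2F letters in their windows. A match is a description of these letters only. The windows are printed 5′ to 3′ on the strand of the gene, from 250 bases before to 10 after the start, with the matched letters in capitals. They lie at chr20:19265043-19265302 (Cdk1, plus strand), chr8:79981649-79981908 (Ccnb2, minus), chr1:143659231-143659490 (Prc1, plus), chr4:122918085-122918344 (Mcm2, minus), chr13:42404343-42404602 (Mcm6, minus) and chr9:30733737-30733996 (Mcm3, minus).
Cdk1: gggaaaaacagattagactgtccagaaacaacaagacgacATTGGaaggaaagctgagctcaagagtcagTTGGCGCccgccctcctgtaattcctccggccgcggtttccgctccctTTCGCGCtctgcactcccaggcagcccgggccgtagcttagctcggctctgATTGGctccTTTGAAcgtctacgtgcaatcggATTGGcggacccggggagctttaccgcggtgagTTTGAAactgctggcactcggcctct
Ccnb2: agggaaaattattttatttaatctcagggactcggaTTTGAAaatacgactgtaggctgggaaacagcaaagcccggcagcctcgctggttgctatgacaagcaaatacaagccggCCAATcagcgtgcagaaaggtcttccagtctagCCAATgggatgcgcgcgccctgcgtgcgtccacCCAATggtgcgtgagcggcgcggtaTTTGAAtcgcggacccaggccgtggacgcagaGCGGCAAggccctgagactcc
Prc1: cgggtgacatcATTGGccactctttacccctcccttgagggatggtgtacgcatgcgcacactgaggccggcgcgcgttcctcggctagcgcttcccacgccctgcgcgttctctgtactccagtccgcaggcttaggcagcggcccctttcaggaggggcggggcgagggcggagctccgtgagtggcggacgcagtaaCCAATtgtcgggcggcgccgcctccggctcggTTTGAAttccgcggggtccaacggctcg
Mcm2: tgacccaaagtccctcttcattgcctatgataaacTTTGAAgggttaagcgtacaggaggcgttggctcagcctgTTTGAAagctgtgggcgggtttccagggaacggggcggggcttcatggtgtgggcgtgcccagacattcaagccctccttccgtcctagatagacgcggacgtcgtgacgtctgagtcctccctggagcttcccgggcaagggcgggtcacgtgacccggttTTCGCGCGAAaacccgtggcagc
Mcm6: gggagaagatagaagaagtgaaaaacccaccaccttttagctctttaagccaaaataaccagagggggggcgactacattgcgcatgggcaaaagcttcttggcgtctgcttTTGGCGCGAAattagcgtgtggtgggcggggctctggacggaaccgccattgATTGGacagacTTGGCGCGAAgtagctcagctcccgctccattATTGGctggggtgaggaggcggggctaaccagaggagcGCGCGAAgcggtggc
Mcm3: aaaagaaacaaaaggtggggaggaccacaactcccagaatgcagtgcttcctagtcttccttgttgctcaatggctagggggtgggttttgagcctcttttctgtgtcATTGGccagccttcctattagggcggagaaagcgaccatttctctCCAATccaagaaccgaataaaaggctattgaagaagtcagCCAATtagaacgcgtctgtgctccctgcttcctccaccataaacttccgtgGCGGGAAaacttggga

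Values are log2 signals relative to the 75th percentile of the gene spots of the array, so that 0 is a bright probe and a difference of 1 is a doubling. Each gene is given by its brightest probe, and all 42 probes were well above background on all 12 arrays. The number of arrays, 3 in each group, limits the precision. On each array 74.8% to 79.6% of the 58717 gene spots were well above background and none was saturated. Each of the 2 slides held the arrays of a single day, and in every comparison of the days the slide and the day cannot be told apart. Defining markers of the gland were present: Krt18 and Epcam of luminal cells, Krt14 of basal cells and Adipoq of fat cells were well above background on all 12 arrays. Visible lymph nodes had been removed from the glands. On the LP day 21 array 6a the lymphocyte markers were low, with 8 of 8 T cell and 8 of 9 B cell markers at least 2 below the other arrays on the log2 scale. The B cell marker Pax5 was the exception, at -2.41 there and -2.60 to -2.02 elsewhere. The summed level of 8 T cell markers was 0.287 there and 12 to 28.5 on the other 11 arrays, and that of 9 B cell markers was 0.353 there and 3.91 to 10.1 elsewhere. In RNA of a whole gland, fewer dividing cells and less of these RNAs per cell cannot be told apart.

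One array stood apart before any group did. On the NP day 28 array 4f all 27 mitosis genes and 13 of the 15 S-phase genes had their lowest value of the 12 arrays, whereas 20.8% of all genes tested were lowest on that array. The mitosis genes lay a median of -2.49 from the median of the other 11 arrays on the log2 scale, from -3.22 (Prc1, a microtubule bundling protein of the midzone, 9.3-fold below) to -1.13 (Aurka, a kinase of the spindle poles, 2.19-fold below). The S-phase genes lay a median of -1.27 away, from -2.39 (Tk1, thymidine kinase) to -0.09 (Mcm3). For comparison, the other 11 arrays together spanned a median of 0.97 for a mitosis gene and 0.83 for an S-phase gene. At least 1 below the other arrays were 27 of 27 mitosis and 9 of 15 S-phase genes, against 5.81% of all genes, and at least 2 below were 21 mitosis and 2 S-phase genes, against 1.48% of all genes.

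**Figure D1:**
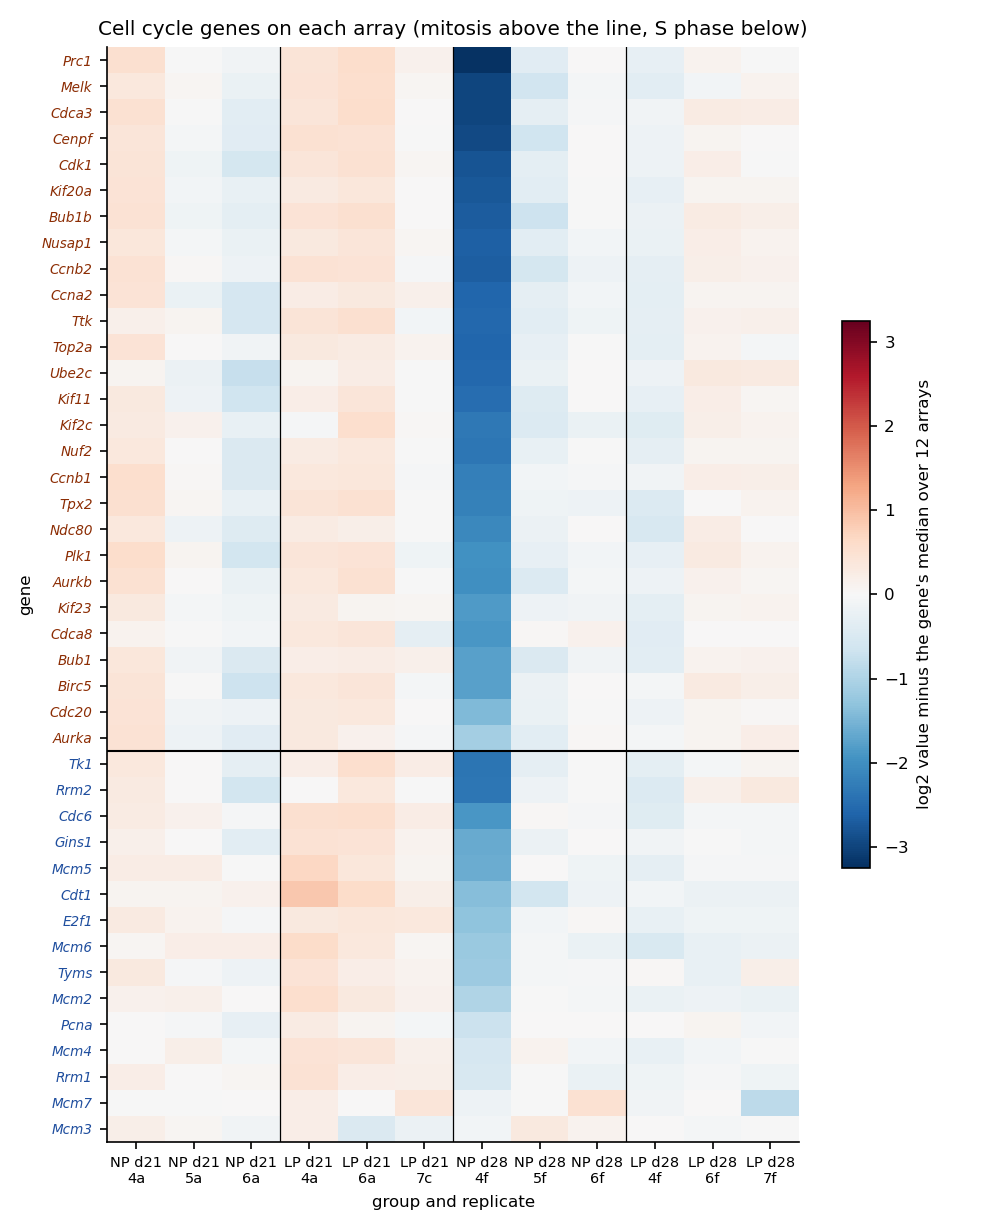
Colour gives the log2 value of each of 42 genes (rows) on each of 12 arrays (columns) minus the gene's median over the arrays, with mitosis genes above the black line and S-phase genes below it. The column of the NP day 28 array 4f is blue for every mitosis gene, and it fades toward the bottom of the S-phase block, where Mcm3 and Mcm7 are close to 0.

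The departure was deep at every step of division. The kinases and cyclins of mitotic entry had a median of -2.65 (7 genes, -3.06 for Melk to -1.13 for Aurka), the spindle checkpoint, kinetochore and chromosomal passenger genes -2.09 (9 genes, -2.95 to -1.80), the spindle motors and microtubule binding proteins -2.43 (4 genes, -2.72 to -2.20), the cytokinesis genes -2.76 (3 genes, -3.22 to -1.91), and the genes of the anaphase promoting complex and mitotic exit -2.55 (3 genes, -3.01 to -1.45). Top2a, the topoisomerase that untangles mitotic chromosomes, lay at -2.58. These ranges overlapped throughout. The S-phase genes spread more widely. Of the 15, 9 lay within the range of the mitosis genes. Lowest were Tk1 (-2.39) and Rrm2 (-2.35), which encode the cell cycle regulated enzymes of deoxynucleotide supply, followed by the licensing factor Cdc6 (-1.93). Cdt1, E2f1 and Tyms lay at -1.48, -1.35 and -1.20. Rrm1, the large subunit of the same reductase as Rrm2, lay at -0.53. The helicase subunits ranged from -1.66 (Gins1) and -1.62 (Mcm5) through -1.27 (Mcm6), -0.99 (Mcm2) and -0.56 (Mcm4) to -0.18 (Mcm7) and -0.09 (Mcm3). Pcna, the sliding clamp and the protein the study stained in end buds, lay at -0.71. Mcm3 and Mcm7 were lowest on other arrays, LP day 21 6a and LP day 28 7f.

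**Figure D2:**
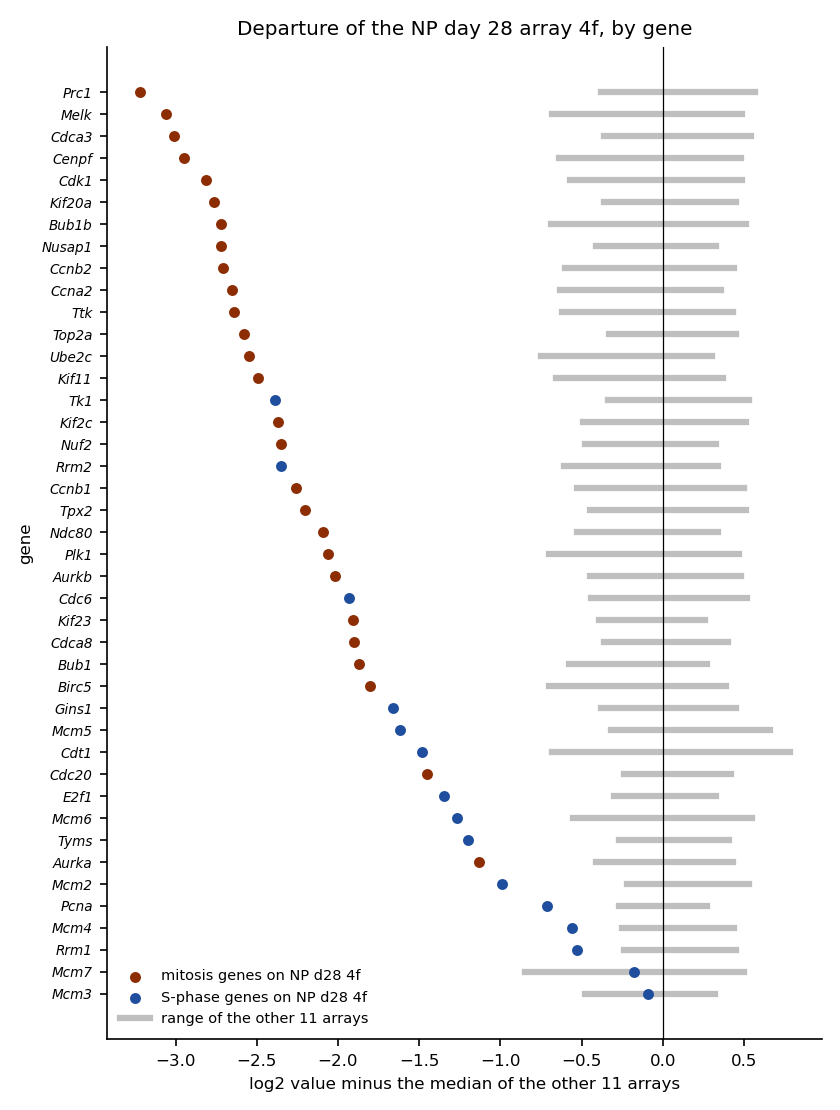
Each point is the log2 value of a gene on the NP day 28 array 4f minus the median of the other 11 arrays, and each grey bar is the range of those 11 arrays. All mitosis genes (brown) and 13 of 15 S-phase genes (blue) lie to the left of their grey bar.

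The departure was seen by separate probes and separate spots. Of 11 genes with another probe, that probe was well above background on all 12 arrays for 3 of 6 mitosis genes and 5 of 5 S-phase genes. Ccna2, Kif2c and Top2a lay at -2.72, -1.91 and -2.89 with it, and 4 of the 5 S-phase genes at -2.40 to -0.76, each lowest on the same array. Mcm3 was again the exception, at -0.34 and lowest on LP day 21 6a. The second probes of Bub1, Cenpf and Prc1, well above background on 9, 11 and 11 arrays, were also lowest on NP day 28 4f. Those of Cenpf and Prc1 lay at -3.37 and -3.91, but their values on that array were very dim (-7.35 and -7.31), so these sizes are rough. That of Bub1 was dim on all arrays (-7.42 to -5.73), and no size is given for it. Cdk1 was printed in 10 spots, and on this array they ran from -1.09 to -0.96, with an SD of 0.043. The array itself was like the others in brightness: 77.4% of its gene spots were well above background, and its 75th percentile signal was 2079 against 1451 to 2370 elsewhere. Its median correlation with the others over all probes was 0.983. Only LP day 21 6a was lower (0.975), and the remaining arrays lay at 0.986 to 0.991. Some markers of other cells also departed on this array. The 11 luminal markers had a mean of -0.79 on it (6 of 11 lowest there, summed level 15), but also a mean of -0.89 and a summed level of 16.6 on the NP day 21 array 4a, where the mitosis genes were among their highest. The 7 measured basal markers had a mean of -1.47 on it and -0.82 to 1.09 elsewhere, with summed levels of 9.28 and 7.87 to 25.6. The T and B cell markers had their highest summed levels on it, 28.5 and 10.1, though the B cell mean was higher on NP day 28 5f (-0.79 against -0.95). The 7 endothelial markers had a summed level of 26.1 on it, against 14.3 to 19.7 elsewhere. Only 2 of these 7 were highest there, and their mean of -0.03 lay within the -0.51 to 0.13 of the other arrays. The 7 fibroblast markers had their lowest summed level, 290 against 299 to 442, with 3 of the 7 lowest there and 1 highest. The summed levels of the macrophage markers (8.99, and 7.45 to 12.6 elsewhere) and adipocyte markers (135, and 103 to 141 elsewhere) lay within the range of the other arrays. Of the 6 adipocyte markers only Lep was at least 1 below the other arrays, at -5.49 against -3.97 to -2.65 elsewhere. Of 7 skeletal muscle markers 6 were at least 1 below, but none was lowest there, and their summed level of 2.01 lay within the 0.754 to 56 elsewhere. The part of these markers in the departure was not tested. The main medians and counts below are given with and without this array. It was singled out on the values of these same members, so leaving it out lowers their spread by that choice. The p values and counts without it, also beside the share of all genes, are therefore not independent support. In LP against NP at day 21 and in the days of LP rats, leaving it out alters the SE and p values, which rest on the spread of all groups, but no difference.

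Within each group, single arrays were highest or lowest for most mitosis genes. The share of all genes with the same order within a group was not computed. The genes of a list moved together, so the counts below describe shifts of a whole list on single arrays and not separate results. Of the 3 NP arrays of day 21, 4a was highest and 6a lowest for 27 of 27 mitosis genes. Of the LP arrays of day 21, 7c was lowest for 26 of 27, while the highest was 6a for 21 and 4a for 6. Of the LP arrays of day 28, 4f was lowest for 27 of 27, while the highest was 6f for 19 and 7f for 8. The list means ran from -0.83 (NP day 21 4a and LP day 21 6a) to -1.58 (NP day 21 6a), with -3.57 on NP day 28 4f. The S-phase genes ordered the same arrays less uniformly, with NP day 21 6a lowest of its group for 11 of 15 and LP day 28 4f for 9 of 15. Their list means ran from -0.34 (LP day 21 4a) to -0.96 (LP day 28 4f), with -1.96 on NP day 28 4f. The gap between the list means lay between -0.72 and -0.24 on 11 arrays and was -1.61 on NP day 28 4f. The highest array of a mitosis gene was NP day 21 4a for 14 genes and LP day 21 6a for 11, and that of an S-phase gene was LP day 21 4a for 9 of 15. The array with low lymphocyte markers, LP day 21 6a, was thus among the highest for the mitosis genes. It also had the highest summed levels of luminal (63.1) and basal markers (25.6), and their part in its values was not tested.

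**Figure D3:**
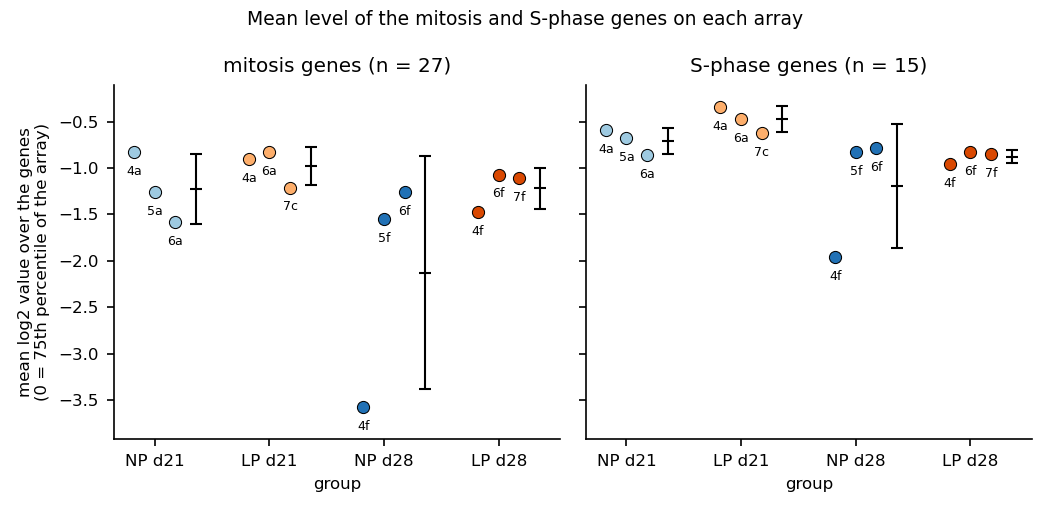
Points are the mean log2 values of the 27 mitosis genes (left) and the 15 S-phase genes (right) on each array, labelled by replicate, and the bars are group means ± SD over 3 arrays. The NP day 28 array 4f lies at -3.57 and -1.96, below all other arrays on both sides.

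The first comparison asked whether LP and NP glands differed at day 21. Nearly all members were a little higher in LP, and none passed the test. All 27 mitosis genes and 14 of 15 S-phase genes had a higher mean in LP, with median log2 differences of 0.24 and 0.23, where the median over all genes tested was 0.01. Leaving out 1 array moved the mitosis median to between 0.07 (without NP 6a) and 0.44 (without NP 4a), and the S-phase median to between 0.18 and 0.31. The list means were -0.98 ± 0.21 in LP and -1.22 ± 0.38 in NP for the mitosis genes, and -0.48 ± 0.14 and -0.71 ± 0.14 for the S-phase genes (SD, n = 3 each). The mitosis difference lay within the SD of the NP rats, and the S-phase difference was larger than either SD. No member had an adjusted p under 0.05 in limma, as was so for 0% of all genes, and the lowest adjusted p was 0.861. At an unadjusted p under 0.05 the count was 0 of 42, against 4.34% of all genes.

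Cdk1, the kinase that drives entry into mitosis, had the largest difference of the mitosis genes. It was at 2.17, 2.27 and 1.84 on the LP arrays 4a, 6a and 7c and at 2.19, 1.64 and 1.21 on the NP arrays 4a, 5a and 6a, a difference of 0.42 ± 0.60 (SE). One NP rat was thus level with the LP rats and the groups overlapped. Ube2c, the ubiquitin conjugating enzyme of the anaphase promoting complex, was at -0.67, -0.50 and -0.76 in LP and -0.67, -0.95 and -1.49 in NP (0.40 ± 0.56). Ttk, the checkpoint kinase Mps1, was at -0.81, -0.71 and -1.31 in LP and -1.05, -1.14 and -1.76 in NP (0.37 ± 0.54). In both, the same NP rat, 6a, was lowest and the groups overlapped. Of the S-phase genes, Cdt1, which loads the helicase onto origins, was at -3.63, -3.90 and -4.30 in LP and -4.40, -4.41 and -4.35 in NP. Its LP arrays all lay above its NP arrays, 7c only just, and the difference of 0.44 ± 0.27 had an adjusted p of 0.861 in limma. Gins1, a subunit of the active helicase, was at -0.78, -0.82 and -1.15 in LP and -1.10, -1.23 and -1.61 in NP (0.40 ± 0.36). Tk1 was at -0.02, 0.31 and 0.00 in LP and 0.11, -0.22 and -0.52 in NP (0.31 ± 0.50). Both overlapped. The other usual markers of dividing cells differed by less than their SE or about as much, with 0.12 ± 0.54 for Top2a, 0.19 ± 0.51 for Ccnb1, 0.23 ± 0.23 for Mcm2 and 0.20 ± 0.19 for Pcna. The study counted fewer PCNA-stained cells per end bud area in LP than in NP at both days. That is a measure of protein in end buds, unlike RNA of a whole gland. Only Cdt1, Mcm7 and E2f1, the E2F factor itself, had all LP arrays above all NP arrays, 3 of 42 members or about the share of all genes (5.58%). Leaving NP day 28 4f, an array singled out on these members, out of the fit lowers the estimated spread but leaves these values as they are. Cdc6, Cdt1, Gins1 and Mcm4 then had unadjusted p values of 0.0269 to 0.047 in limma, against 3.57% of all genes higher at that level, and adjusted p values of 0.709. Without LP day 21 6a as well, no member passed an unadjusted p of 0.05 and the medians were 0.17 and 0.24. Markers of other cells differed between LP and NP too. All 11 luminal markers had a higher mean in LP (median 0.85, 3 with an unadjusted p under 0.05), with summed levels of 22.1 to 63.1 in LP and 16.6 to 33 in NP, and so had all 7 basal markers (median 0.75, none with such a p), with 12 to 25.6 and 7.87 to 14.5. The 8 T cell and 9 B cell markers had lower means in LP, with medians of -2.23 and -2.05. Without NP day 28 4f and LP day 21 6a the medians were 0.50 for the luminal, 0.37 for the basal, -0.19 for the T cell and -0.49 for the B cell markers. The 7 skeletal muscle markers, a tissue next to the gland, ranged in summed level from 0.812 to 56 within LP and from 4.15 to 40.7 within NP. The part of these markers in the differences was not tested.

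At day 28 the LP against NP difference rested on the array 4f. With all arrays, the mitosis genes were higher in LP by a median of 0.94 (27 of 27, 0.45 to 1.23) and the S-phase genes by 0.27 (13 of 15, -0.41 to 0.86), with -0.05 over all genes. Without NP 4f these medians were 0.22 (26 of 27) and -0.07 (7 of 15), so the S-phase genes turned sign. The LP list mean of the mitosis genes, -1.22 ± 0.22 (SD, n = 3), stood against an NP mean of -2.13 ± 1.26 (n = 3) with that array and of -1.41 ± 0.20 (n = 2) without it. No member passed an adjusted p of 0.05 in limma (0% of all genes, lowest adjusted p 0.581), 0 of 42 passed an unadjusted p of 0.05 (7.95% of all genes), and none had all LP arrays above all NP arrays (4.42% of all genes). Without NP 4f none passed either, against 5.34% of all genes at an unadjusted p under 0.05. Leaving out NP 6f instead, so that NP 4f and 5f stood for the group, 28 members (24 mitosis and 4 S-phase genes) had an unadjusted p under 0.05, all higher in LP, against 5.77% of all genes higher, and the lowest adjusted p was 0.316. Markers of other cells differed here too. All 11 luminal markers had a higher mean in LP (median 0.53, summed levels of 33.5 to 37.8 in LP and 15 to 31.5 in NP) and 6 of 7 basal markers (median 0.83, 11.8 to 13.8 and 9.28 to 12.4), with medians of 0.23 and 0.11 without NP 4f. All 8 T cell and 9 B cell markers had a lower mean in LP, with medians of -0.58 and -0.60, and of -0.52 and -0.59 without NP 4f. The part of these markers was not tested.

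Cdca3 is a trigger of mitotic entry, counted above by role with the anaphase promoting complex and mitotic exit. It was at 0.30, 0.67 and 0.64 on the LP arrays 4f, 6f and 7f and at -2.58, 0.12 and 0.37 on the NP arrays 4f, 5f and 6f. The difference was 1.23 ± 0.63 (SE) with all arrays and 0.29 ± 0.25 without NP 4f, and LP 4f lay below NP 6f. Bub1b, the checkpoint protein BubR1, was at -2.70, -2.25 and -2.32 in LP and -5.21, -3.19 and -2.51 in NP (1.22 ± 0.56, and 0.43 ± 0.29 without NP 4f). Cenpf, a kinetochore protein, was at -3.30, -3.05 and -3.13 in LP and -6.08, -3.77 and -3.13 in NP (1.17 ± 0.60, and 0.29 ± 0.27). In each of these the NP array 6f lay among the LP arrays. Rrm2, the regulated subunit of ribonucleotide reductase, was at 1.77, 2.39 and 2.55 in LP and -0.13, 2.06 and 2.20 in NP (0.86 ± 0.54, and 0.10 ± 0.29 without NP 4f). Tk1 was at -0.56, -0.29 and -0.14 in LP and -2.61, -0.53 and -0.25 in NP (0.80 ± 0.50, and 0.05 ± 0.21). Cdt1 was at -4.58, -4.68 and -4.68 in LP and -5.89, -5.09 and -4.66 in NP (0.57 ± 0.27, and 0.23 ± 0.19). Apart from NP 4f, the groups overlapped in all of these. Both remaining NP arrays lay above all LP arrays for Cdc6, E2f1, Mcm2 and Mcm3 of the S-phase genes and for Cdca8, a subunit of the chromosomal passenger complex, of the mitosis genes, against 18.4% of all genes. The usual markers of dividing cells differed between LP and NP as follows. Top2a differed by 0.86 ± 0.54 with all arrays and 0.05 ± 0.19 without NP 4f, and Ccnb1 by 0.87 ± 0.51 and 0.16 ± 0.27. Mcm2 differed by 0.15 ± 0.23 and -0.16 ± 0.12, and Pcna by 0.24 ± 0.19 and 0.00 ± 0.13. None of the 4 had an adjusted p below 0.581 in limma.

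**Figure D4:**
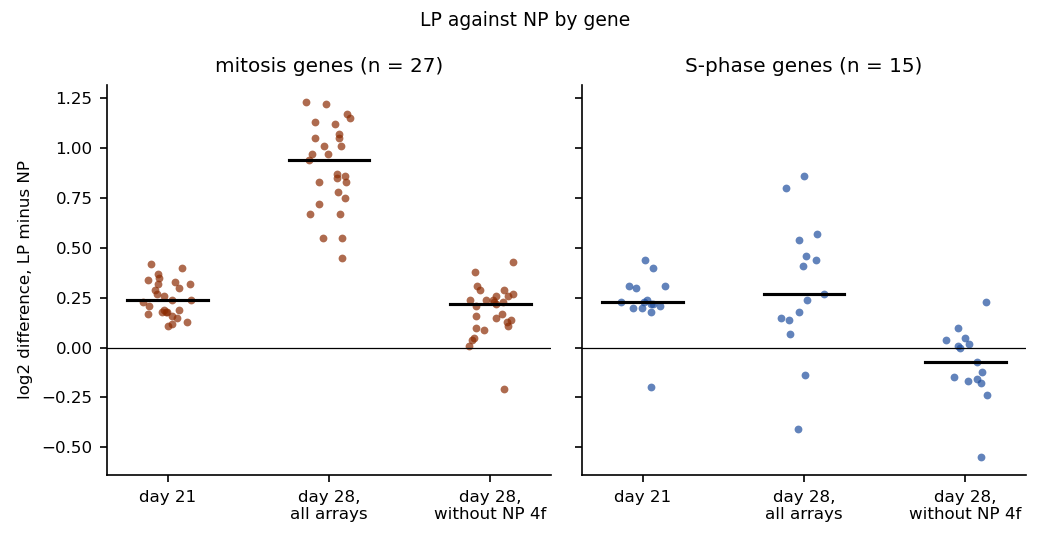
Points are the log2 differences, LP minus NP, of the 27 mitosis genes (left) and 15 S-phase genes (right) at day 21, at day 28 with all arrays, and at day 28 without the NP array 4f, and the black lines are the medians. The mitosis median moves from 0.94 to 0.22 and the S-phase median from 0.27 to -0.07 when that array is left out.

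The test of whether the LP against NP difference changed between the days found no member. With all arrays the lowest unadjusted p was 0.086 (Mcm7) and 0 of 42 passed 0.05, against 2.27% of all genes. Without NP day 28 4f the change was negative for 15 of 15 S-phase genes, with a median of -0.31, and had a median of -0.06 over the mitosis genes (-0.05 over all genes). Cdc6, E2f1, Mcm2 and Mcm4 then had unadjusted p values of 0.0337 to 0.0426, where 2.57% of all genes were lower at that level, and all adjusted p values were 0.999.

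The second question was how the members differed between the days. Nearly all members had a lower mean at day 28, and those with the lowest p values were S-phase genes. Over both diets, day 28 was lower than day 21 for 27 of 27 mitosis genes (median -0.60) and for 14 of 15 S-phase genes (median -0.47), while the median of all genes tested was 0.02. No mitosis gene passed an unadjusted p of 0.05, and 8 of the 15 S-phase genes did, all lower, against 8.59% of all genes lower at that level. No member passed an adjusted p of 0.05 in limma, against 1.84% of all genes, and the lowest adjusted p was 0.076 (Cdt1). Every array of day 28 lay below every array of day 21 for 4 members, Mcm2, Mcm6, Cdt1 and Rrm1, all S-phase genes, against 1.79% of all genes. Without NP day 28 4f the medians were -0.20 for the mitosis genes (26 of 27 lower) and -0.30 for the S-phase genes (14 of 15 lower). Unadjusted p values under 0.05 were then found for 3 mitosis genes, Melk, Prc1 and Ccnb2, and 8 S-phase genes, against 9.18% of all genes lower. None passed an adjusted p of 0.05 (1.77% of all genes did), the lowest being 0.0551 for Cdt1. The days did not overlap for those 4 genes and no other member, against 2.76% of all genes. The median residual SD of a mitosis gene was 0.72 with and 0.29 without that array, and that of an S-phase gene 0.36 and 0.19. Leaving out NP day 28 6f instead gave Cdt1 a difference of -0.90 with an adjusted p of 0.0395 in limma, the 1 member call in the settings where calls were counted. It gave 24 members an unadjusted p under 0.05, all lower, against 9.48% of all genes lower. The lymphocyte markers had higher means at day 28, 8 of 8 T cell and 9 of 9 B cell markers with a median of 0.93 for the B cell markers and about as much for the T cell markers, but of 0.15 and -0.02 without NP day 28 4f and LP day 21 6a. The luminal and basal markers had medians of 0.03 and -0.23, and of 0.19 and 0 without NP 4f. Their part in the differences was not tested.

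Cdt1, the origin loading factor, was at -4.40, -4.41, -4.35, -3.63, -3.90 and -4.30 on the arrays of day 21 (NP, then LP) and at -5.89, -5.09, -4.66, -4.58, -4.68 and -4.68 on those of day 28. The difference was -0.76 ± 0.19 (SE) with all arrays and -0.59 ± 0.13 without NP 4f. Mcm6, a helicase subunit, was at -1.16, -1.01, -1.00, -0.61, -0.88 and -1.14 at day 21 and at -2.43, -1.27, -1.42, -1.71, -1.46 and -1.41 at day 28 (-0.65 ± 0.19, and -0.47 ± 0.11). In both genes the days did not overlap in either diet. Mcm2, another subunit, was at -0.34, -0.32, -0.47, 0.06, -0.16 and -0.33 at day 21 and at -1.45, -0.48, -0.53, -0.69, -0.64 and -0.68 at day 28 (-0.49 ± 0.16, and -0.33 ± 0.08). Its days did not overlap either, though its NP arrays nearly met. Rrm1 was at -3.53, -3.72, -3.68, -3.27, -3.52 and -3.54 at day 21 and at -4.25, -3.75, -3.96, -3.88, -3.78 and -3.88 at day 28 (-0.37 ± 0.09, and -0.31 ± 0.08). Cdc6 was at -3.37, -3.49, -3.67, -3.11, -3.08 and -3.40 at day 21 and at -5.53, -3.60, -3.67, -4.04, -3.70 and -3.69 at day 28 (-0.68 ± 0.30, and -0.37 ± 0.10), and its days overlapped, through the NP arrays only. Tk1, whose values are given with the LP against NP comparisons, differed by -0.68 ± 0.36, and by -0.30 ± 0.14 without NP 4f. Mcm6 and Rrm1 are shown because their days did not overlap, and were chosen on these values. The sizes depended on the processing. In the other settings with all arrays, described at the end, the Rrm1 difference ranged from -0.37 to -0.09. That of Cdt1 ranged from -0.77 to -0.35, that of Mcm2 from -0.73 to -0.46 and that of Mcm6 from -0.65 to -0.56. All stayed lower at day 28, but the Rrm1 difference could be small. Second probes of Mcm2 and E2f1 also had every array of day 28 below every array of day 21, whereas that of Mcm4 gave 0.01 without NP 4f, against -0.24 for its brightest probe.

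Pcna was at 1.23, 1.18, 0.95, 1.49, 1.32 and 1.16 on the arrays of day 21 and at 0.51, 1.22, 1.22, 1.24, 1.30 and 1.13 on those of day 28. Its day difference was -0.12 ± 0.13, and 0.00 ± 0.08 without NP 4f, and apart from that array the days overlapped throughout. Mcm3 was the 1 S-phase gene with a higher mean at day 28 (0.10 ± 0.12, and 0.15 ± 0.13 without NP 4f), with values from 1.95 to 2.64 at day 21 and from 2.34 to 2.75 at day 28. Its second probe gave -0.10 without NP 4f, so the direction turned with the probe. Its promoter window, printed above, held both E2F and CCAAT letters, as did that of Mcm6.

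Of the mitosis genes, Melk, a kinase of dividing cells, was at -1.78, -2.06, -2.35, -1.67, -1.57 and -2.05 at day 21 and at -5.12, -2.74, -2.19, -2.48, -2.22 and -2.00 at day 28. Its difference was -0.88 ± 0.42 with all arrays and -0.43 ± 0.16 without NP 4f, and the days overlapped. Prc1 was at -0.23, -0.75, -0.86, -0.32, -0.16 and -0.59 at day 21 and at -3.94, -1.11, -0.73, -1.00, -0.63 and -0.76 at day 28 (-0.87 ± 0.47, and -0.37 ± 0.15). Ccnb2, a mitotic cyclin, was at -1.14, -1.58, -1.77, -1.15, -1.16 and -1.64 at day 21 and at -4.29, -2.18, -1.77, -1.90, -1.42 and -1.46 at day 28 (-0.76 ± 0.38, and -0.38 ± 0.16). In all of these the days overlapped, and each difference was much smaller without the single array. Top2a was at 0.41, -0.04, -0.17, 0.26, 0.23 and 0.07 at day 21 and at -2.62, -0.32, -0.05, -0.37, 0.07 and -0.11 at day 28 (-0.70 ± 0.38, and -0.29 ± 0.13). Ccnb1, the partner cyclin of Cdk1, was at -0.93, -1.43, -1.96, -1.13, -1.10 and -1.53 at day 21 and at -3.69, -1.56, -1.53, -1.60, -1.27 and -1.30 at day 28 (-0.48 ± 0.36, and -0.12 ± 0.18). Cdk1 at day 28 was at -1.03, 1.45, 1.78, 1.60, 1.98 and 1.77, a day difference of -0.63 ± 0.43, and -0.19 ± 0.18 without NP 4f. Apart from NP 4f, the arrays of day 28 fell within the range of day 21 for both Ccnb1 and Cdk1. Ube2c was the 1 mitosis gene with a higher mean at day 28 once NP 4f was left out (0.11 ± 0.16).

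**Figure D5:**
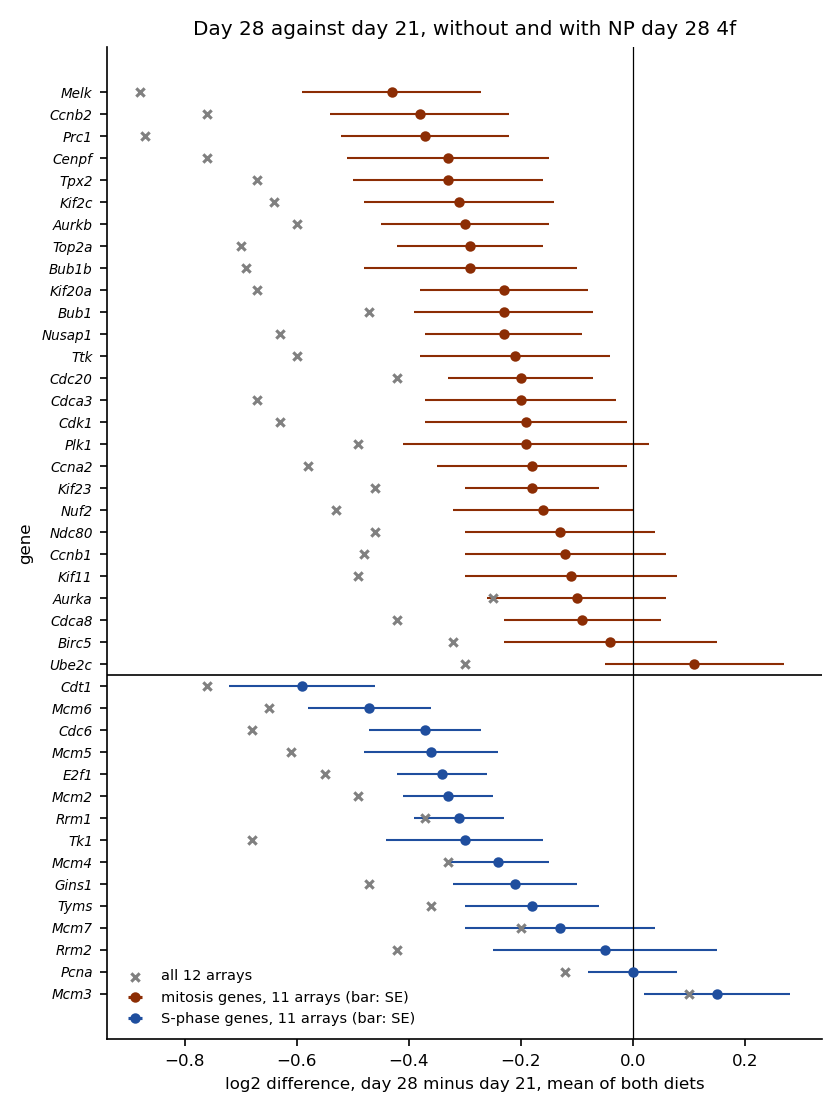
Points with bars are the log2 differences, day 28 minus day 21 over both diets, ± SE without the NP day 28 array 4f, and grey crosses are the differences with all 12 arrays. Cdt1 and Mcm6 lie at -0.59 and -0.47 with short bars, Pcna lies at 0.00, and the crosses of the mitosis genes lie well to the left of their points.

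The days were also compared within each diet. In LP rats the S-phase genes were lower at day 28 by a median of 0.45 (14 of 15) and the mitosis genes by a median of 0.24 (26 of 27). All 3 arrays of day 28 lay below all 3 of day 21 for 10 of 15 S-phase genes (Cdc6, Cdt1, E2f1, Gins1, Mcm2, Mcm4, Mcm5, Mcm6, Rrm1 and Tk1) and for 4 of 27 mitosis genes (Bub1, Ccna2, Prc1 and Top2a), against 10.8% of all genes. Unadjusted p values under 0.05 were found for 5 S-phase genes and no mitosis gene, against 5.15% of all genes lower, and the lowest adjusted p in limma was 0.38. With NP day 28 4f left out of the fit, 11 S-phase genes and no mitosis gene did, against 6.69% of all genes lower, and the lowest adjusted p was 0.164. Without LP day 21 4a, on the other hand, no member did. The array with low lymphocyte markers, LP day 21 6a, is part of this comparison. Without it and NP 4f the medians were -0.44 and -0.16. In NP rats the medians were -0.54 and -0.92 with 4f, where 5 members had an unadjusted p under 0.05 and all were lower (4.36% of all genes), and -0.13 and -0.20 without it, where 1 member, Cdt1, had such a p (4.08% of all genes lower). Without NP 6f, which left 4f and 5f at day 28, 31 members did, all lower (6.27% of all genes). None passed an adjusted p of 0.05 in NP rats (lowest 0.251, 0.329 without 4f and 0.108 without 6f). The difference between LP and NP in the day comparison is the test of change given above, which no member passed.

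Other mitosis and S-phase genes, which were not members, were low on the array NP day 28 4f too. Of 48 other mitosis genes tested, 37 were at least 1 below the other arrays, against 5.81% of all genes, with a median departure of -1.67. Of 56 other S-phase genes 16 were, with a median of -0.57. Of 15 regulators of G1 (cyclins D, their kinases, the retinoblastoma family and others) 1 was, about the share of all genes, with a median of -0.14. In LP against NP at day 21 the medians were 0.22, 0.23 and 0.06 for these lists, and 2 (1 of them lower in LP), 3 and 0 genes had an unadjusted p under 0.05, against 4.34% of all genes. Without NP day 28 4f in the fit 5, 8 and 1 had, against 5.97% of all genes. The largest differences among the mitosis genes were in the spindle motor Kif15 (0.53 ± 0.47, SE), the kinetochore gene Cenpk (0.53 ± 0.27) and the cytokinesis kinase Cit (0.51 ± 0.26). Among the S-phase genes they were in the helicase subunit Gins2 (0.63 ± 0.20), the E2F family repressor E2f8 (0.56 ± 0.51) and the origin recognition subunit Orc1 (0.55 ± 0.47), and among the regulators in cyclin D1, Ccnd1 (0.56 ± 0.34), the retinoblastoma relative Rbl2 (-0.36 ± 0.19) and E2f3 (0.30 ± 0.20). None had an adjusted p in limma below 0.861, or below 0.709 without NP day 28 4f. At day 28 the medians were 0.68, 0.17 and -0.08, and 0.14, -0.04 and -0.06 without NP 4f. With all arrays 3, 4 and 1 genes had an unadjusted p under 0.05 (7.95% of all genes), and 2, 2 and 0 without NP 4f (5.34%). The mitotic kinase Pbk (1.28 ± 0.66), Cit (1.18 ± 0.26) and the kinetochore gene Ska1 (1.14 ± 0.60) led the mitosis genes, E2f8 (0.92 ± 0.51), the DNA repair gene Brca1 (-0.92 ± 0.42) and cyclin E1, Ccne1 (0.91 ± 0.35) the S-phase genes, and Tfdp1 (0.40 ± 0.17), Rbl2 (-0.34 ± 0.19) and Ccnd2 (-0.30 ± 0.17) the regulators. Without NP 4f the differences were 0.28 ± 0.22 for Pbk, 0.32 ± 0.34 for Ska1, 0.23 ± 0.29 for E2f8, -1.13 ± 0.47 for Brca1, 0.45 ± 0.22 for Ccne1, 0.26 ± 0.17 for Tfdp1, -0.16 ± 0.18 for Rbl2 and -0.24 ± 0.19 for Ccnd2. Cit had all LP arrays above all NP arrays and a difference of 0.94 ± 0.25 without NP 4f, but its adjusted p was 0.581, and 0.869 without that array.

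Between the days the other lists were lower at day 28 by medians of 0.46, 0.23 and 0.11, and by 0.23, 0.14 and 0.06 without NP 4f. Unadjusted p values under 0.05 were found for 8 of 48, 13 of 56 and 3 of 15, all lower, against 8.59% of all genes lower. Without NP 4f 10, 14 and 2 were lower at that level (9.18% of all genes), and 2 of the S-phase genes, the nucleases Exo1 and Dna2, were higher (11.4% of all genes). The 1 gene past an adjusted p of 0.05 in limma was Cdc25b, a phosphatase that activates Cdk1, which fell by 0.57 ± 0.11 with an adjusted p of 0.0367, and of 0.055 without NP 4f. Cdc25b is given here because of that value, not by the naming rule. The largest differences among the mitosis genes were in the transcription factor Mybl2 (-0.85 ± 0.42), the centrosome kinase Nek2 (-0.80 ± 0.40) and Ska1 (-0.77 ± 0.42). Among the S-phase genes they were in Pola2 (-0.79 ± 0.17), the maintenance methylation factor Uhrf1 (-0.72 ± 0.37) and the checkpoint adaptor Clspn (-0.65 ± 0.41), and among the regulators in the cyclin D partner Cdk4 (-0.36 ± 0.10), Rbl1 (-0.33 ± 0.15) and Ccnd1 (-0.30 ± 0.24). Without NP 4f the differences were -0.40 ± 0.14 for Mybl2, -0.39 ± 0.16 for Nek2, -0.36 ± 0.23 for Ska1, -0.71 ± 0.17 for Pola2, -0.35 ± 0.18 for Uhrf1, -0.25 ± 0.20 for Clspn, -0.28 ± 0.07 for Cdk4, -0.22 ± 0.12 for Rbl1 and -0.06 ± 0.12 for Ccnd1. Pola2, a subunit of DNA polymerase alpha, came to an adjusted p of 0.0504 by limma with all arrays, and 0.0707 without NP 4f.

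The remaining members are accounted for as follows. The mitosis genes not given array by array (Aurka, Aurkb, Birc5, Bub1, Ccna2, Cdc20, Cdca8, Kif11, Kif20a, Kif23, Kif2c, Ndc80, Nuf2, Nusap1, Plk1 and Tpx2) had LP minus NP differences within 0.11 to 0.42 at day 21, the range of the whole list, and day differences within -0.43 to 0.11 without NP 4f, also the range of the list. The S-phase genes not given array by array, beside Mcm3, were E2f1, the helicase subunits Mcm4, Mcm5 and Mcm7, and Tyms, which makes thymidylate, with day differences of -0.34, -0.24, -0.36, -0.13 and -0.18 without NP 4f. By role, the licensing factors had the lowest median over the days without NP 4f (-0.48, 2 genes), followed by E2f1 (-0.34), and the nucleotide enzymes and the helicase subunits (-0.24 each, 4 and 7 genes). The medians of the mitosis roles lay between -0.29 and -0.19. Probes of 2 members, Birc5 and Tk1, carried no position, and the other probes were placed on rn4 by the array annotation, as in chr20:20043755-20043814 for Cdk1, chr10:87771459-87771518 for Top2a, chr4:122978031-122978090 for Mcm2 and chr13:41052148-41052207 for Mcm6.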

How the data were processed

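Total RNA of 12 rat mammary glands was labelled in 1 colour and hybridised to Agilent whole-genome rat arrays, 1 array per rat. The authors extracted the spot values with Agilent Feature Extraction, and the deposited scanner files give each spot's background-subtracted intensity with flags for signal above background, saturation and outliers. The deposited table of ratio values held each array's processed signal divided by a constant that set the array's median to 1 (relative deviation from the scanner files at most 6.56e-05), and it was used as an alternative only. From the files, control spots and outlier spots were left out, spots of a probe were averaged, and log2 intensities were taken relative to the 75th percentile of the array. Of 30367 probes, 23209 that were well above background on at least 3 arrays were tested in 1 fit of 4 groups with limma 3.58.1 in R 4.3.3 (tables read with data.table, version 1.17.8), moderated by its empirical Bayes step, with p values adjusted by the Benjamini-Hochberg method over all of them. Each gene is given by its brightest probe (20199 genes), and percentages of all genes are over these. Alternative scalings, filters, probes, blocks and left-out arrays were run, and their effect is given at the end. The code was tested on simulated data.

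The members and gene lists were chosen with earlier results of these data known. Values on every array are given for the usual markers of dividing cells (Top2a, Cdk1, Ccnb1, Mcm2 and Pcna, with Mki67 having no value). Values on the arrays compared are given for the 3 members of each list with the largest differences in each of the comparisons of LP with NP at day 21, at day 28 and of the days. Other cell cycle genes are named where they had the 3 largest differences of their list. Arrays were grouped by the diet and day in the labels. The precision is limited by 3 arrays per group.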

Additional observations from a re-analysis of the deposited data

How the results depend on the processing

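List medians were taken in 29 settings (25 planned and 4 chosen after seeing the data), Ccna2, Melk or Top2a being left out of the mitosis list besides. Members passing were counted in 26 of them in LP against NP at either day and in the days within a diet. They were not counted where NP 4f was left out together with another scaling or background correction. In those 26 no member passed an adjusted p of 0.05 in limma in these comparisons. The other scalings, background correction, filters and probes left the list medians on the same side of 0. At day 28 the LP against NP medians rested on NP 4f. Leaving out 1 array at a time gave 0.22 to 1.35 for the mitosis genes and -0.07 to 0.53 for the S-phase genes, the lowest being without NP 4f, and other settings with all arrays gave 0.73 to 1.09 and 0.25 to 0.38. Without NP 4f the medians were 0.22 and -0.07 also when LP day 21 6a was left out, 0.21 and -0.08 with median scaling, 0.24 and -0.04 with quantile normalization, and 0.19 and -0.05 with normexp background correction. For the change of that difference between the days, leaving out 1 array gave -0.06 to 1.07 and -0.31 to 0.30. Without NP 4f it was 0 and -0.32 when LP day 21 6a was also left out, -0.06 and -0.31 with median scaling, -0.01 and -0.28 with quantile normalization, and -0.10 and -0.26 with normexp. These reversals follow from leaving out 1 array. Leaving out NP day 28 6f instead let 1 member (Cdt1) pass an adjusted p of 0.05 in the comparison of the days, so that leaving out 1 array gave 0 to 1 members there. Shared numbers were not taken as pairs: the correlations of deviations were -0.056 to 0.38 between the days of a diet and 0.089 to 0.13 between the diets of a day. With the replicate number as a block, 0 members passed, with lowest adjusted p values of 0.583 at day 21, 0.651 at day 28 and 0.122 between the days, and medians of 0.41 and 0.36, 1.09 and 0.38, and -0.60 and -0.47. A random block of diet and number had a correlation of 0.027. Leaving out Mki67 or Ect2 was not run, since neither had a value, and leaving out arrays not compared was not run where all 12 are compared. With 3 against 3 rats the smallest exact p of a single gene is 0.1, and small differences were not detectable at this size.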
